A study of Mus musculus with 8 samples.

Results

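ATP-binding cassette (ABC) transporters that carry sterols and phospholipids were followed in livers of mice that lack both liver X receptors. The set has 9 members, Abca1, Abca3, Abca6, Abca7, Abcg1, Abcg2, Abcg5, Abcg8 and Abcb4, chosen by gene symbol from the 25010 genes of the RNA-Seq table. All 9 were found, and all 9 entered the test. Left-lobe liver RNA of 2 wild-type (WT) and 2 LXRDKO mice was sequenced, with 1 library per mouse. The mice, of C57BL/6 background and 8 wk of age, were kept on standard chow and went without food for 4 to 6 h before killing. In LXRDKO mice the genes of LXRα (Nr1h3) and LXRβ (Nr1h2) are both disrupted in every tissue, and whole liver holds hepatocytes together with Kupffer, endothelial, stellate and biliary cells. The labels name no LXR agonist and no cholesterol-rich diet for these mice. Values are normalized counts, that is, reads on a gene divided by a size factor of the library.

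ABC transporters use ATP to move substrates across membranes. ABCA1 hands cholesterol and phospholipid to lipid-poor apolipoprotein A-I and so starts the formation of HDL, and ABCG1 passes cholesterol to particles already formed. ABCG5 and ABCG8 work as a heterodimer that secretes cholesterol and plant sterols into bile, while ABCB4 moves phosphatidylcholine to the bile side of the canalicular membrane. LXRs bind DNA with RXR as partner, respond to oxysterols, and are known to induce Abca1, Abcg1, Abcg5 and Abcg8 when sterols or a synthetic ligand are abundant.

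Promoter windows from RefSeq on GRCm38.p6, each with 250 bases before and 50 bases after a start site, were matched for 7 members, which had 10 windows in all. Abca1 and the Abcg5-Abcg8 pair are shown because Abca1 is a textbook LXR target and because Abcg5 and Abcg8 start in opposite directions from neighbouring sites. The Abca1 stretch lies at chr4:53159896-53160145 on the minus strand and ends at the base before the start site. The stretch of the pair lies at chr17:84683001-84683120 on the plus strand. It holds the first 11 bases of Abcg5, which is transcribed to the left, and the 109 bases between the start sites. Capitals mark the E-box CACGTG, the CCAAT box and nuclear receptor hexamers, each on either strand. The hexamers searched were AGGTCA, its variant AGTTCA, and a further variant, GGGTCA.
Abca1: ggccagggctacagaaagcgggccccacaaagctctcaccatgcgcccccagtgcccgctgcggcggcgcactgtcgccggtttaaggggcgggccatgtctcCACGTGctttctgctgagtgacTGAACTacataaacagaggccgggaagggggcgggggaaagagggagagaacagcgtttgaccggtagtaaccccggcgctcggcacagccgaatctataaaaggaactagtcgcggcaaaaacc
Abcg5-Abcg8: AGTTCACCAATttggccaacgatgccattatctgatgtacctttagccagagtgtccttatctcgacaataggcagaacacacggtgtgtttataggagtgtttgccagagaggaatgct
The Abca1 stretch held the E-box 147 to 142 bases before the start site and the hexamer AGTTCA on the other strand 125 to 120 bases before it. In the shared stretch AGTTCA and CCAAT stood side by side, 120 to 110 bases before the Abcg8 start. Any of the 3 hexamers occurred in 8 of the 10 windows and in 37.5% of all 32851 promoter windows. The hexamer in the printed stretches, AGTTCA, occurred in 6 of the 10 windows and in 14% of all, AGGTCA in 2 and in 16.3%, and GGGTCA in 2 and in 13.7%. A window of Abcg5 and a window of Abcg8 overlap, so the AGTTCA and CCAAT printed for the pair count in both windows. CCAAT occurred in 5 of the 10 windows and in 37.4% of all windows, and CACGTG in 1 of the 10 and in 7.15% of all. The spacing LXR-RXR prefers, 2 of these hexamers in the same direction with 4 bases between, was found in 0 of the 10 windows and in 0.0639% of all. The search covered exact letters of these 3 hexamers in these windows only, so a site at this spacing with other letters was not marked. The Abca1 stretch holds such a pair in lower case, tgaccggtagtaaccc. On the other strand it reads GGGTTA and CGGTCA with 4 bases between, and neither is among the 3 hexamers. Whether LXR binds there was not tested here. The authors state that many LXR sites of biological importance are imperfect repeats.

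The 2 deleted receptors were lower in both LXRDKO livers. Nr1h3 measured 5785 and 5322 normalized counts in WT mice, against 1712 and 1826 in LXRDKO mice (adjusted P = 0.0147, limma). Nr1h2 measured 2987 and 3110 in WT mice, against 925 and 1003 in LXRDKO mice (adjusted P = 0.0147, limma). Counts of Nr1h3 and Nr1h2 in LXRDKO livers were 0.319 and 0.316 times those in WT livers, so reads of both remained, and where along the genes they lie was not analysed here. Between 55772659 and 72842744 reads per liver fell on genes, and the members had from 152 to 24288 reads each. Of the markers fixed for hepatocytes, all 8 were present, with a summed level of 6868962 and 7851832 normalized counts in WT mice, against 7174441 and 6644386 in LXRDKO mice. Alb supplied most of that sum. Limma and edgeR called 0 of these 8. DESeq2 called 2 higher in LXRDKO, beside 3.59% of all genes called by it in either direction. An unadjusted limma P value under 0.05 was reached by 2, beside 13.3% of all genes tested. Without overlap 3 were higher and 1 lower, beside 21.7% and 23% of all genes tested.

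Across the set, Abcg1 was lower in both LXRDKO livers, and the log2 fold changes of the other 8 members lay between −0.38 and 0.15. With P values adjusted over all 15578 genes tested and a threshold of 0.05, limma called 0 of the 9 members. Over all genes it called 0.321%, and 0.186% as lower in LXRDKO. Without adjustment 2 members, Abcg1 and Abca3, had a P value under 0.05, a mark that 13.3% of all genes reached. DESeq2, run on the reads recovered from the normalized counts, called 1 member, Abcg1, which was lower in LXRDKO. It called 3.59% of all genes, and 2.03% as lower. The quasi-likelihood test of edgeR called 0 members and 0.315% of all genes. The median log2 fold change of the members was −0.07, with 6 below 0 and 3 above, beside −0.0046 for all genes tested. Groups did not overlap for 3 members, Abcg1 and Abca3 with lower and Abcb4 with higher values in LXRDKO. Of all genes tested, 44.7% did not overlap. Livers of the same genotype differed by a median of 0.18 on the log2 scale in WT and 0.17 in LXRDKO. With 2 livers against 2, an exact two-sided permutation test of a single gene cannot go below 0.333, so each P value rests on the spread that is pooled across genes.

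**Figure D1:**
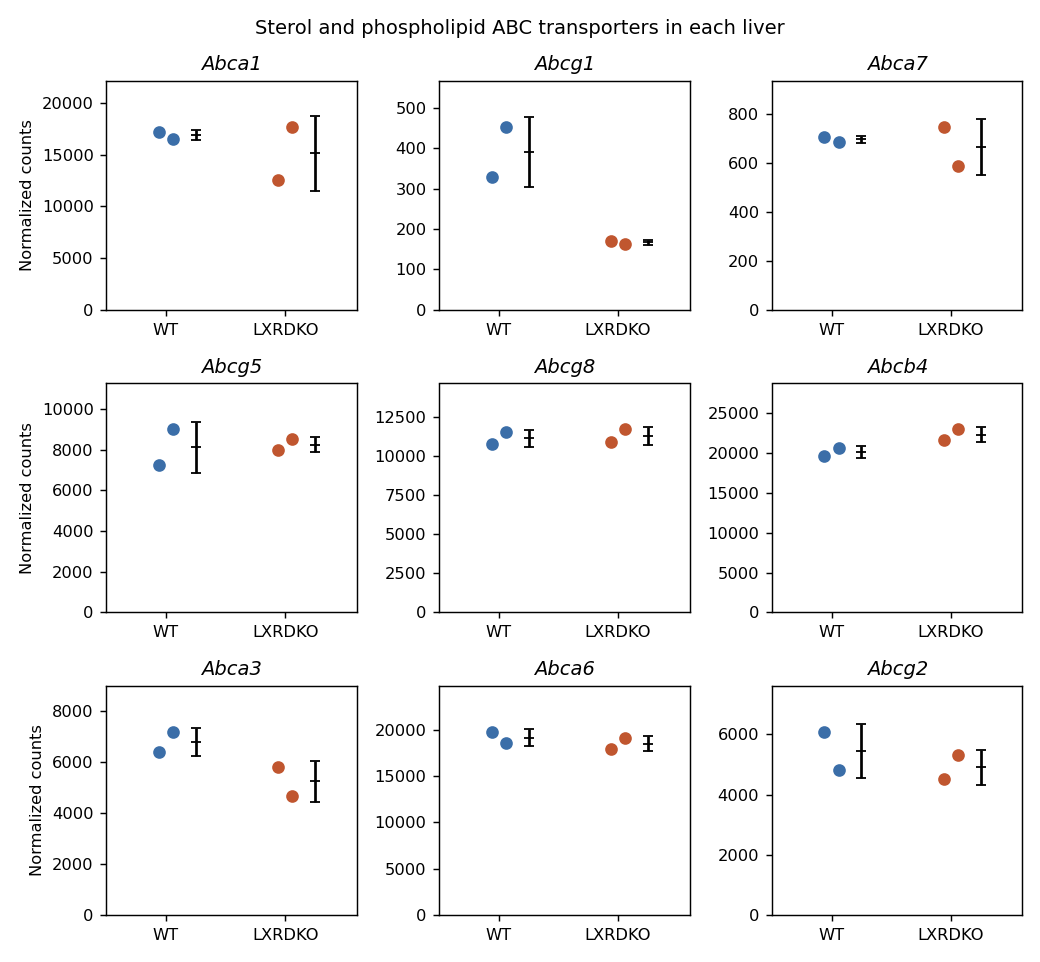
Normalized counts (y axes, each starting at 0) of the 9 transporters in WT and LXRDKO livers, with 1 point per liver and the mean ± SD beside each pair. Abcg1 sits at 330 and 452 in WT and at 171 and 163 in LXRDKO, while the points of Abca1, Abca6, Abca7, Abcg2, Abcg5 and Abcg8 overlap between the genotypes.

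Among the transporters of cholesterol efflux, Abcg1 had the widest difference of the set and Abca1 showed none that could be told from the spread. Abcg1, on chromosome 17 from 31057675 to 31117988 of GRCm38, measured 330 and 452 normalized counts in WT mice, against 171 and 163 in LXRDKO mice. These rest on 289 and 533 reads in WT and on 180 and 152 reads in LXRDKO. The genotypes did not overlap, and the LXRDKO values were closer to each other than the WT values were. The log2 fold change of Abcg1 was −1.21 (standard error [SE] 0.21, unadjusted P = 0.00144, adjusted P = 0.12, limma), a 2.31-fold lower level with a 95% interval of the LXRDKO to WT ratio from 0.303 to 0.621. With DESeq2 the estimate was −1.23 (SE 0.27) and the adjusted P value 0.000397, and with edgeR the adjusted P value was 0.128. Leaving out each mouse in turn gave Abcg1 log2 fold changes from −1.43 to −0.98, and without WT replicate 1 the adjusted P value was 0.0375 (limma).

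Abca1, on chromosome 4 from 53030787 to 53159895, measured 17221 and 16547 normalized counts in WT mice, against 12581 and 17696 in LXRDKO mice. The LXRDKO livers held both the lowest and the highest value of the 4. Its log2 fold change was −0.18 (SE 0.17, adjusted P = 0.73, limma), and the 95% interval of the ratio ran from 0.658 to 1.19. Without LXRDKO replicate 1 the log2 fold change of Abca1 was 0.07. Abca7, a close relative of Abca1, also exports phospholipid and has been linked to phagocytosis. It measured 706 and 685 normalized counts in WT mice, against 747 and 585 in LXRDKO mice, again with both extremes in LXRDKO (log2 fold change −0.07, SE 0.15, adjusted P = 0.896, limma). Abca7 lies on chromosome 10 from 79996494 to 80015572.

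Transporters of the canalicular membrane, which deliver sterol and phospholipid to bile, differed by 0.15 or less on the log2 scale. Abcg5, on chromosome 17 from 84658234 to 84683011, measured 7241 and 9009 normalized counts in WT mice, against 7995 and 8508 in LXRDKO mice. Both LXRDKO values lay between the WT values. The log2 fold change of Abcg5 was 0.03 (SE 0.13, adjusted P = 0.952, limma), with a 95% interval of the ratio from 0.819 to 1.27. Abcg8, on the opposite strand from 84676302 to 84700333, measured 10761 and 11547 normalized counts in WT mice, against 10903 and 11727 in LXRDKO mice. Its log2 fold change was 0.02 (SE 0.10, adjusted P = 0.954, limma), with a ratio between 0.861 and 1.20 at 95% confidence.

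Because ABCG5 and ABCG8 act as a heterodimer, their relative levels were set side by side. Per kilobase of exon, the ratio of Abcg5 to Abcg8 was 0.93 and 1.08 in WT mice, against 1.01 and 1.00 in LXRDKO mice. The LXRDKO ratios fell between the WT ratios. The annotated exons of these genes overlap on opposite strands over 82 bases, 3.02% of the exon bases of Abcg5 and 2.19% of those of Abcg8. The kit keeps strand, but whether counting used it is not given in the sources used here.

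Abcb4, on chromosome 5 from 8893717 to 8959231, was the member whose values were higher in both LXRDKO livers. It measured 19606 and 20615 normalized counts in WT mice, against 21601 and 22969 in LXRDKO mice. The log2 fold change of Abcb4 was 0.15 (SE 0.10, adjusted P = 0.6, limma), and the 95% interval of the ratio, from 0.935 to 1.31, includes 1. Over all genes tested, 21.7% had both LXRDKO livers above both WT livers. Of the words of 50 bases in Abcb4 transcripts, 2.87% also occur in transcripts of other genes, including Abcb1a, so a small part of its reads could be shared.

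The remaining members have main roles outside sterol secretion by hepatocytes. Abca3, best known for loading phospholipid into the lamellar bodies of lung cells that make surfactant, measured 6403 and 7198 normalized counts in WT mice, against 5824 and 4677 in LXRDKO mice. The highest LXRDKO value was below the lowest WT value, as for 23% of all genes tested. Its log2 fold change was −0.38 (SE 0.13, unadjusted P = 0.0324, adjusted P = 0.327, limma), and the adjusted P value was 0.299 with DESeq2. Leaving out each mouse in turn gave Abca3 log2 fold changes from −0.54 to −0.22. Abca3 lies on chromosome 17 from 24351950 to 24410201, where the antisense transcript gene D330041H03Rik covers 914 of its exon bases, or 9.75%. D330041H03Rik measured 159 and 154 normalized counts in WT mice, against 218 and 168 in LXRDKO mice, far fewer than Abca3. Of the words of 50 bases in Abca3 transcripts, 10.1% also occur, on either strand, in transcripts of other genes, most often those of D330041H03Rik.

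Abcg2, an exporter of urate, porphyrins and many drugs, measured 6085 and 4811 normalized counts in WT mice, against 4502 and 5320 in LXRDKO mice. The groups overlapped, and the log2 fold change was −0.14 (SE 0.15, adjusted P = 0.748, limma). Abcg2 lies on chromosome 6 from 58584523 to 58695676. Abca6, a member of a cluster of ABCA genes on chromosome 11 whose substrates are less well defined, measured 19811 and 18542 normalized counts in WT mice, against 17930 and 19089 in LXRDKO mice. For Abca6, which spans 110176820 to 110251776, the log2 fold change was −0.05 (SE 0.10, adjusted P = 0.885, limma), and the groups overlapped. Words of 50 bases shared with other genes made up 0.243% of the Abca6 transcripts and 0.844% of those of Abcg2.

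**Figure D2:**
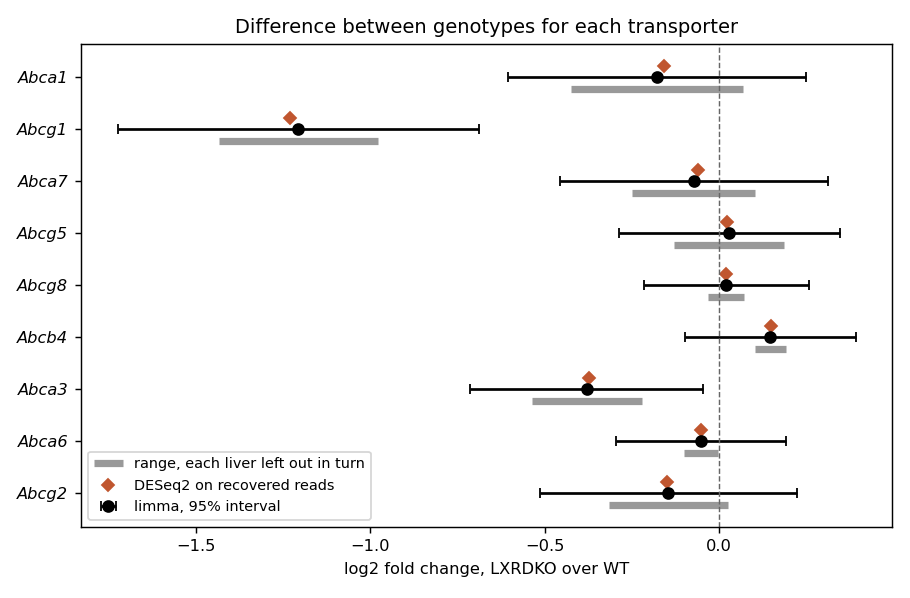
Log2 fold change of LXRDKO over WT (x axis) for each transporter, with the limma estimate and its 95% interval in black, the DESeq2 estimate as a diamond and the range with each liver left out in turn as a grey bar. The intervals of Abcg1, around −1.21, and of Abca3, around −0.38, lie below 0, and those of the other 7 members include 0.

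Levels of different transporters were compared per kilobase of annotated exon. Abca6 stood highest in WT livers with 3553 ± 166 normalized counts per kilobase (SD, n = 2). Abcg5 followed with 2996 ± 461 and Abcg8 with 2975 ± 148 (SD, n = 2 each), and their ranges overlapped, so these neighbours were not told apart. Abcb4 had 2143 ± 76.1 and Abca1 1629 ± 46.0 normalized counts per kilobase (SD, n = 2 each). Abca3, with 725 ± 59.9, and Abcg2, with 668 ± 111 (SD, n = 2 each), overlapped, and their order was the reverse in LXRDKO. The ranges of all other neighbours in the order did not overlap in either genotype. Abca7 had 103 ± 2.2 normalized counts per kilobase (SD, n = 2). Abcg1 stood lowest, with 53.6 ± 11.9 in WT and 22.9 ± 0.77 in LXRDKO (SD, n = 2 each). Per kilobase, Abcg1 amounted to 2.72% and 3.88% of Abca1 in WT mice, against 1.93% and 1.31% in LXRDKO mice. In LXRDKO livers Abca6, Abcg5, Abcg8, Abcb4 and Abca1 kept this order, with 3429, 3043, 3018, 2375 and 1461 normalized counts per kilobase on average. The length used matters for Abcb4, which has 9383 exon bases over all transcripts and 4079 in its longest transcript. Per kilobase of the longest transcript Abcb4 stood highest, at 4930 normalized counts in WT, and Abca6 next at 3660.

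**Figure D3:**
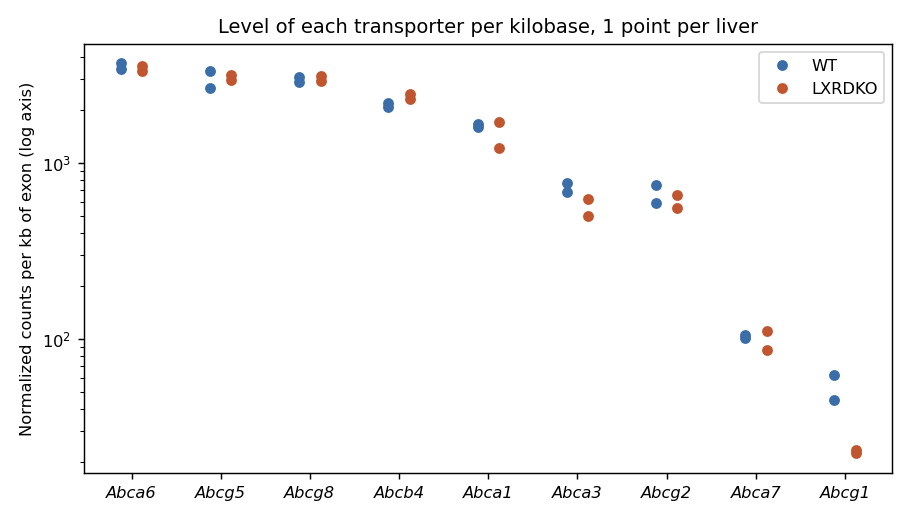
Normalized counts per kilobase of exon (y axis, log scale) for each transporter, ordered by the WT mean, with 1 point per liver. Abca6, Abcg5 and Abcg8 average from 2975 to 3553 in both genotypes, and Abcg1 lies lowest, with the LXRDKO livers at 23.4 and 22.3.

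Abcg1 is expressed in macrophages and endothelium as well as in hepatocytes, so lists of cell type markers were read beside it. In bulk liver, fewer cells of a type and less RNA per cell cannot be told apart. The 8 Kupffer cell markers added up to 9075 and 9572 normalized counts in WT mice, against 1319 and 776 in LXRDKO mice. All 8 had a log2 fold change below 0, with a median of −2.97. Limma called 4 of them lower and DESeq2 7, beside 0.186% and 2.03% of all genes called lower. Without overlap 7 were lower, beside 23% of all genes tested, and the groups of Clec1b overlapped. Timd4, a defining marker of resident Kupffer cells, was at 0 in LXRDKO replicate 2 and at 4.75 normalized counts in LXRDKO replicate 1. The 9 general macrophage markers had sums of 19394 and 18594 in WT and 23043 and 16842 in LXRDKO, with both extremes in LXRDKO. Limma, edgeR and DESeq2 each called 0 of these 9, and 2 had an unadjusted limma P value under 0.05, beside 13.3% of all genes tested.

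The 8 endothelial markers added up to 12669 and 11274 normalized counts in WT mice, against 8938 and 7044 in LXRDKO mice. Limma called 2 of them lower, Cdh5 (log2 fold change −1.28, adjusted P = 0.0255) and Kdr (−1.17, adjusted P = 0.0498). DESeq2 also called 2 lower. Over all genes limma called 0.186% as lower and DESeq2 2.03%. An unadjusted limma P value under 0.05 was reached by 5 of the 8, beside 13.3% of all genes tested. Without overlap 6 were lower, beside 23% of all genes tested. Of the 8, 7 had a log2 fold change below 0, while Lyve1 went the other way, at 0.23. The groups of Lyve1 and of Stab2 overlapped. The 6 markers of lipid-associated macrophages added up to 2003 and 4247 in WT and to 5277 and 5845 in LXRDKO. Limma called 1 of the 6 higher and DESeq2 2, beside 0.321% and 3.59% of all genes called in either direction. Without overlap 5 were higher, beside 21.7% of all genes tested. An unadjusted limma P value under 0.05 was reached by 5, beside 13.3%. Stellate cell markers added up to 18876 and 22165 in WT and to 26460 and 29079 in LXRDKO, and cholangiocyte markers to 2084 and 3599 in WT and to 4572 and 5426 in LXRDKO. The cholangiocyte list and the lipid-associated list share Spp1. Limma and edgeR called 0 stellate and 0 cholangiocyte markers. DESeq2 called 2 and 1 higher, beside 3.59% of all genes called in either direction. An unadjusted limma P value under 0.05 was reached by 4 and 3, beside 13.3% of all genes tested. Without overlap 5 of 8 stellate and 6 of 6 cholangiocyte markers were higher, beside 21.7% of all genes tested. Spp1 made up most of the cholangiocyte sum and most of the lipid-associated sum. It supplied 1433 and 2907 of each in WT mice, against 3658 and 4300 in LXRDKO mice. In the lipid-associated list 5 markers had a log2 fold change above 0, and Cd9 was at −0.44. The 8 lymphocyte markers added up to 182 and 293 in WT and to 135 and 91.1 in LXRDKO. Of the 7 tested, 5 were lower without overlap, beside 23% of all genes tested, and the median log2 fold change was −0.96. Limma, edgeR and DESeq2 each called 0 of these 7, and 4 had an unadjusted limma P value under 0.05, beside 13.3% of all genes tested. Neutrophil markers added up to 14.8 and 27.2 in WT and to 24.7 in each LXRDKO liver. The part of these cell types in the values of Abcg1 was not tested.

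**Figure D4:**
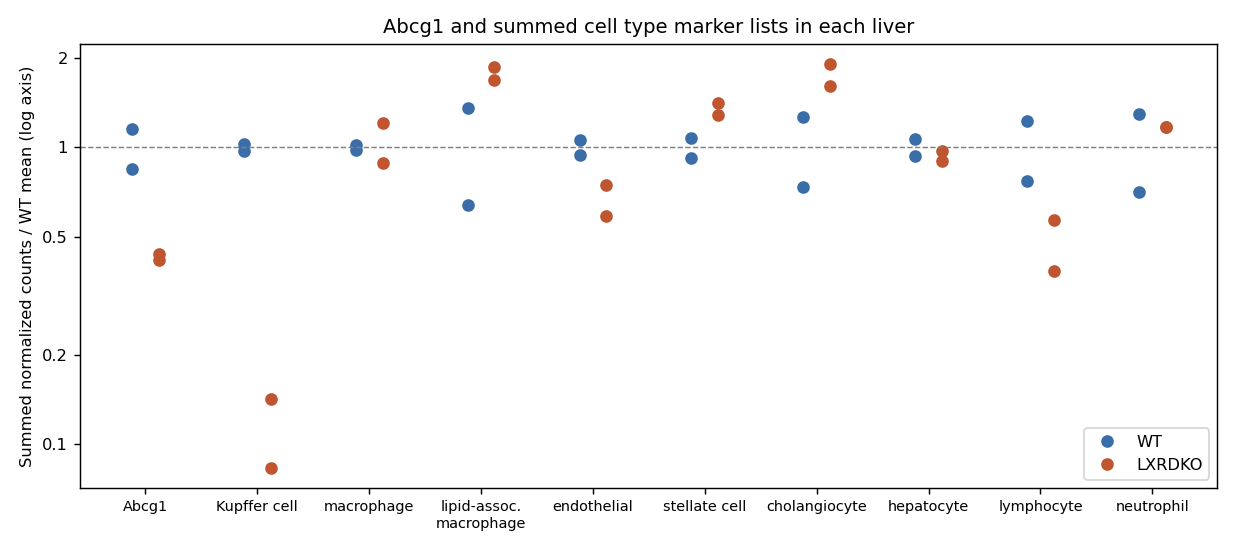
Normalized counts of Abcg1 and summed normalized counts of each marker list, divided by the WT mean (y axis, log scale), with 1 point per liver. Abcg1, the Kupffer cell sum (1319 and 776 in LXRDKO), the endothelial sum and the lymphocyte sum lie below WT in both LXRDKO livers. The lipid-associated macrophage, stellate and cholangiocyte sums lie above WT in both LXRDKO livers. The macrophage sum lies on both sides of WT, and the hepatocyte and neutrophil sums overlap between the genotypes.

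The rest of the ABC family was read from a list of 44 further genes, of which 39 were in the table and 36 were tested. Limma called 0 of the 36 and edgeR 0, while 11 had an unadjusted limma P value under 0.05, beside 13.3% of all genes tested. DESeq2 called 2, both lower in LXRDKO, beside 3.59% of all genes called in either direction and 2.03% called lower. Abcd3, which encodes a peroxisomal importer of fatty acids and bile acid precursors, measured 46707 and 55660 normalized counts in WT mice, against 27924 and 38477 in LXRDKO mice (log2 fold change −0.64, adjusted P = 0.261 with limma and 0.0363 with DESeq2). Abcb10, a mitochondrial transporter, measured 2586 and 2271 in WT mice, against 1740 and 1748 in LXRDKO mice (log2 fold change −0.47, adjusted P = 0.161 with limma and 0.0482 with DESeq2). The median log2 fold change of the 36 was −0.11, with 24 below 0 and 12 above. Abcb11, the bile salt export pump, was singled out after its values were seen because it works beside Abcb4. It measured 40091 and 35424 normalized counts in WT mice, against 30010 and 20579 in LXRDKO mice, with groups that did not overlap and adjusted P values of 0.301 (limma) and 0.089 (DESeq2).

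Partners of these transporters in efflux, HDL and bile were covered by 25 genes, of which 24 were tested. Limma called 0 and edgeR 0, and DESeq2 called 4, with 1 higher and 3 lower, beside 3.59% of all genes called in either direction. An unadjusted limma P value under 0.05 was reached by 6, beside 13.3% of all genes tested. Cyp7a1, the rate-limiting enzyme of bile acid synthesis, measured 17587 and 16798 normalized counts in WT mice, against 24854 and 29037 in LXRDKO mice (log2 fold change 0.64, adjusted P = 0.127 with limma and 0.000494 with DESeq2). Lipa, the lysosomal acid lipase that frees cholesterol from its esters, measured 12283 and 14992 in WT mice, against 8098 and 8692 in LXRDKO mice (log2 fold change −0.69, adjusted P = 0.127 with limma and 0.000588 with DESeq2). Stard4, a carrier of cholesterol between membranes, measured 10382 and 10569 in WT mice, against 5701 and 7099 in LXRDKO mice (log2 fold change −0.72, adjusted P = 0.12 with limma and 0.000599 with DESeq2). The median log2 fold change of the 24 genes was −0.07. Apoa1, also chosen after its values were seen, whose protein takes up the lipid that ABCA1 exports, measured 646961 and 757967 normalized counts in WT mice, against 687178 and 631039 in LXRDKO mice, and the groups overlapped.

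Of 21 regulators, limma called 3, all lower in LXRDKO, namely the deleted Nr1h3 and Nr1h2 and Srebf1, the gene of the lipogenic factor SREBP1 (22205 and 24071 normalized counts in WT mice, against 3118 and 5287 in LXRDKO mice, log2 fold change −2.51, adjusted P = 0.0407, limma). DESeq2 called 6, with 2 higher and 4 lower. Over all genes limma called 0.321% and DESeq2 3.59%. An unadjusted limma P value under 0.05 was reached by 8 regulators, beside 13.3% of all genes tested. The deleted receptors are included in each of these regulator counts. The median log2 fold change over the regulators was −0.02.

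**Figure D5:**
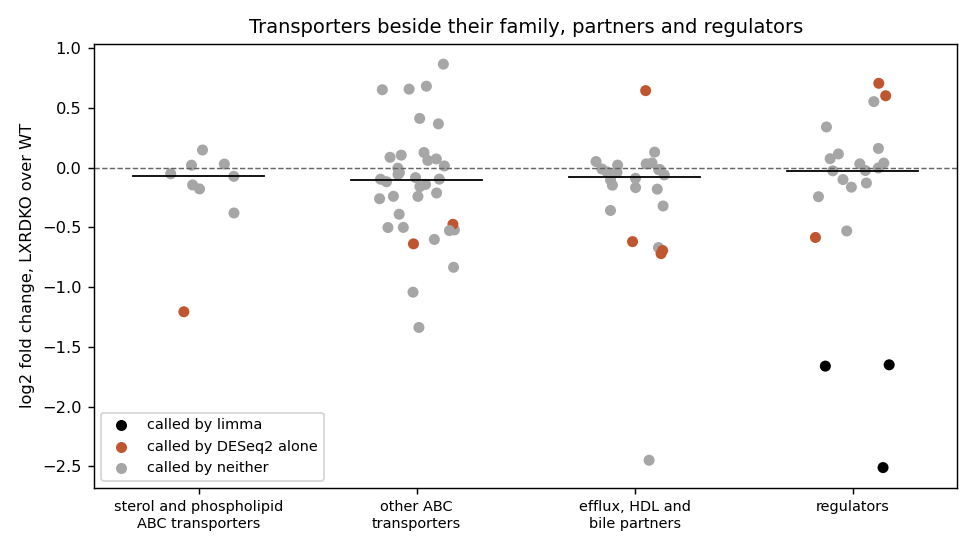
Log2 fold change of LXRDKO over WT (y axis) for the 9 sterol and phospholipid transporters, 36 other ABC transporters, 24 partners and 21 regulators, with 1 point per gene, a line at each median and colours for genes called by limma, by DESeq2 alone or by neither. The medians lie between −0.11 and −0.02, and Abcg1, at −1.21, is the transporter of the first group that DESeq2 called.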

How the data were processed

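RNA-Seq was analysed for 2 WT and 2 LXRDKO livers. The authors captured polyadenylated RNA with a strand-keeping kit, sequenced it as single reads of 50 bp, aligned them to mm10 with STAR 2.6.0c and normalized with DESeq2. The counting tool, its strand setting and the annotation release are not given in the sources used here. The deposited signal is each gene's read count divided by a size factor of the library. All values (100%) were whole multiples of what 1 read is worth, within a tolerance of 0.01 reads, so reads were recovered, and the divisors matched DESeq2 size factors.

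Genotypes were compared with limma 3.58.1 in R 4.3.3, with a variance trend, on log2(normalized count + 1). Genes averaging below 10 normalized counts were left out. Changes of low genes are understated on this log2 scale. Benjamini-Hochberg adjustment of P values ran over all 15578 genes tested, with a threshold of 0.05. DESeq2 1.42.0 and edgeR 4.0.16 were run on recovered reads as alternatives. The tests were also run on simulated data, with the same dispersion for every gene and larger changes than most members showed. That run therefore does not vouch for the calls given here. Each library was treated as 1 replicate.

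Positions and exon lengths came from GENCODE M21 on GRCm38, and promoter windows from RefSeq on GRCm38.p6. The members, the gene and marker lists and the tests were chosen with earlier results of these data known. Named genes are all members, the deleted receptors, up to 3 called genes per further list (by limma, then by DESeq2) and markers near 0 or that moved with a member. Abcb11 and Apoa1 fall outside this rule and were chosen after their values were seen. Outside the marker lists no gene was named for a pattern like that of a member, since 4 libraries give no usable measure of likeness. The labels do not say whether livers with the same replicate number share a litter or batch, so no pairing was used. ATAC-Seq was not analysed here.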

Additional observations from a re-analysis of the deposited data

How the results depend on the processing

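Every member was refitted under 16 alternatives. Abcg1, Abca3 and Abcb4 kept their direction in all 16. Abcg1 was past the threshold in 2 of them, DESeq2 and the fit without WT replicate 1, and its adjusted P value ranged from 0.000397 to 0.362. No other member passed under any alternative. Estimates near 0 changed sign under some alternatives. With library total scaling, Abca6 was at 0.0035 on the log2 scale. With any 1 liver left out, the log2 fold change ranged from −0.42 to 0.0681 for Abca1 (above 0 without LXRDKO replicate 1), from −0.25 to 0.10 for Abca7 (above 0 without LXRDKO replicate 2) and from −0.31 to 0.0247 for Abcg2 (above 0 without WT replicate 1). It ranged from −0.13 to 0.19 for Abcg5 and from −0.0319 to 0.0732 for Abcg8, both below 0 without WT replicate 1 or without LXRDKO replicate 2. The number of members called was 0 in limma, 1 with DESeq2 and from 0 to 1 when each liver was left out. The median log2 fold change of the members was −0.0182 with library total scaling and ranged from −0.0988 to −0.0058 when each liver was left out.

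Over all genes, calls numbered 50 with limma, 25 with a mean of at least 50, 1 without the variance trend, 567 with DESeq2 and from 2 (without LXRDKO replicate 1) to 262 (without WT replicate 1) when each liver was left out. For the other ABC genes, partners and regulators together they numbered 3, 0 without the trend, 12 with DESeq2 and from 0 to 7 when each liver was left out. The cause was not tested. With the replicate number as a block, 90 genes and 0 members were called. The deviations of same-numbered livers correlated at 0.0031 over genes, which cannot show whether these livers shared a litter or batch. Leaving out a liver leaves a lone sample that is assumed to vary like the others. Abcg1 had the fewest reads of the members, 152 to 533 per liver. Counting error and the spread between livers were not separated, and each genotype has only 2 livers.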
